A study of Mus musculus with 6 samples.

Results

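Ribosome biogenesis and nucleolar genes were compared between mouse hearts with a myocardial Cdc42 knockout (MCKO) and control hearts, all taken whole from embryos at day 9.5. They were taken by symbol from the deposited count table: 36 genes whose products transcribe, modify, cut or assemble ribosomal RNA (rRNA), all of them found among 30323 gene IDs and all of them deep enough to be tested. The MCKO hearts carry the genotype label CDC-42 KO and the controls the label C57BL/6 ctrl, with 3 libraries in each group. Cdc42 encodes a small GTPase that organises actin and cell polarity. The labels give neither the Cre driver nor the deleted exon, nor the strain of the MCKO embryos, and they do not tie a library to an animal or a litter. Differences in strain background or litter between the groups therefore cannot be told apart from the knockout, and the p-values reflect no more than the scatter of these 6 libraries, part of which may be technical.

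Ribosomes are built mainly in the nucleolus. There RNA polymerase I copies the rRNA genes, small nucleolar ribonucleoprotein particles (snoRNPs) methylate and pseudouridylate the transcript, and a long series of assembly factors folds and cuts it into the small and large ribosomal subunits. Demand for ribosomes is high in growing embryonic tissue, and MYC proteins are known activators of many of these genes, binding as dimers with MAX to the E-box CACGTG.

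The promoters of the members were searched for that E-box, which reads the same on both strands. The window was the 250 bases upstream of each RefSeq start site in GRCm38.p6, and sequence downstream of the start site was not searched. Npm1, Fbl, Bop1, Rrp12 and Rrs1 had no promoter in the set used and were not searched. Of the 31 members with a RefSeq promoter, 2 held the motif (6.45%), against 9.63% of 11039 tested genes with a promoter and 6.86% of all genes in the promoter table. These were Rrn3, the factor that brings RNA polymerase I to the rRNA promoter, with 2 copies, and Nop2, an rRNA methyltransferase, with 1 copy. Their upstream sequences are shown with the E-boxes in capitals, beside that of Polr1a, the largest polymerase I subunit, in which the 6 letters did not occur. All 3 genes lie on the plus strand, and each sequence ends at the base before the start site.
Rrn3 at chr16:13780449-13780698: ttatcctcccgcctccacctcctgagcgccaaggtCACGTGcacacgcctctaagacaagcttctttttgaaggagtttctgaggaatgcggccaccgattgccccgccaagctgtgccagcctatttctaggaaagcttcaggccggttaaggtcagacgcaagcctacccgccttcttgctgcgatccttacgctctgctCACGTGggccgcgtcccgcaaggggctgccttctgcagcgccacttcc
Nop2 at chr6:125131633-125131882: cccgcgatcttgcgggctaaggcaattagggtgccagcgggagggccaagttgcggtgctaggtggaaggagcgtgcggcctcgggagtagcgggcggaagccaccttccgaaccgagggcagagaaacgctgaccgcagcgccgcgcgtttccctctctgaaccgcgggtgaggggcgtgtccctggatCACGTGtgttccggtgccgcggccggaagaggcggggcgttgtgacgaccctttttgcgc
Polr1a at chr6:71908803-71909052: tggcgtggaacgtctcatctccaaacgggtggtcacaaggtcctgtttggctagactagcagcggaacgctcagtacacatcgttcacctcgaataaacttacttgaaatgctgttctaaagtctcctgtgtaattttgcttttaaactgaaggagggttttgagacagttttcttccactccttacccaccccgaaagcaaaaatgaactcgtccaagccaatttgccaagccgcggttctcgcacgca
The E-boxes of Rrn3 began 215 and 48 bases upstream of the start site and that of Nop2 60 bases upstream. A match of letters is a description and not a binding site.

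The libraries held 34246477, 25712499 and 23883877 estimated counts for MCKO replicates 1, 2 and 3, and 26983608, 19256840 and 32169289 for control replicates 1, 2 and 3. Levels are given as CPM, a count divided by its library total and scaled alike in all libraries. Fold changes are log2 values of MCKO over control from edgeR. Their standard errors (SE) are the absolute log2 fold change divided by the square root of the F statistic of edgeR's quasi-likelihood test. Each p is from edgeR's quasi-likelihood test and is adjusted by the Benjamini-Hochberg method over all 14697 tested genes, and "called" means that this adjusted p was under 0.05. Cdc42 itself had 247.6, 240.8 and 238.5 CPM in MCKO hearts, against 398.8, 377.3 and 423.7 CPM in control hearts (log2 fold change -0.66, SE 0.047, adjusted p = 2.93e-06). The hearts were whole, so cells other than muscle may also contribute to that level, but the source of the remaining Cdc42 RNA was not tested. Heart muscle markers marked the tissue in every library, with 28907 to 30207 CPM summed over 8 genes in MCKO and 26193 to 29070 CPM in controls.

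Nearly all ribosome biogenesis members were lower in MCKO hearts, by small to moderate amounts. Of the 36 members, 30 fell (83.3%), 1 rose and 5 were not called, while 29.1% of all tested genes fell, 29.3% rose and 58.4% were called in either direction. The median log2 fold change of the members was -0.40, against 0.00057 over all tested genes. The range ran from -0.92 for Bysl to 0.32 for Nop14, and no member reached a 2-fold change. The CPM values of the groups did not overlap for 33 members, as for 65.5% of tested genes, and of all tested genes 37.1% were without overlap and lower in MCKO. CPM leaves out the TMM factors by which edgeR rescales library totals (0.975 to 0.982 in MCKO, 1.017 to 1.026 in controls). MCKO values therefore sit slightly lower against controls in CPM than in the fits, and overlap can differ for members with small changes. Overlap after TMM scaling was not computed. All 36 summed to 4595 to 4643 CPM in the MCKO libraries and 5554 to 5904 CPM in the control libraries. In bulk hearts, fewer cells of a type and less RNA per cell cannot be told apart.

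**Figure D1:**
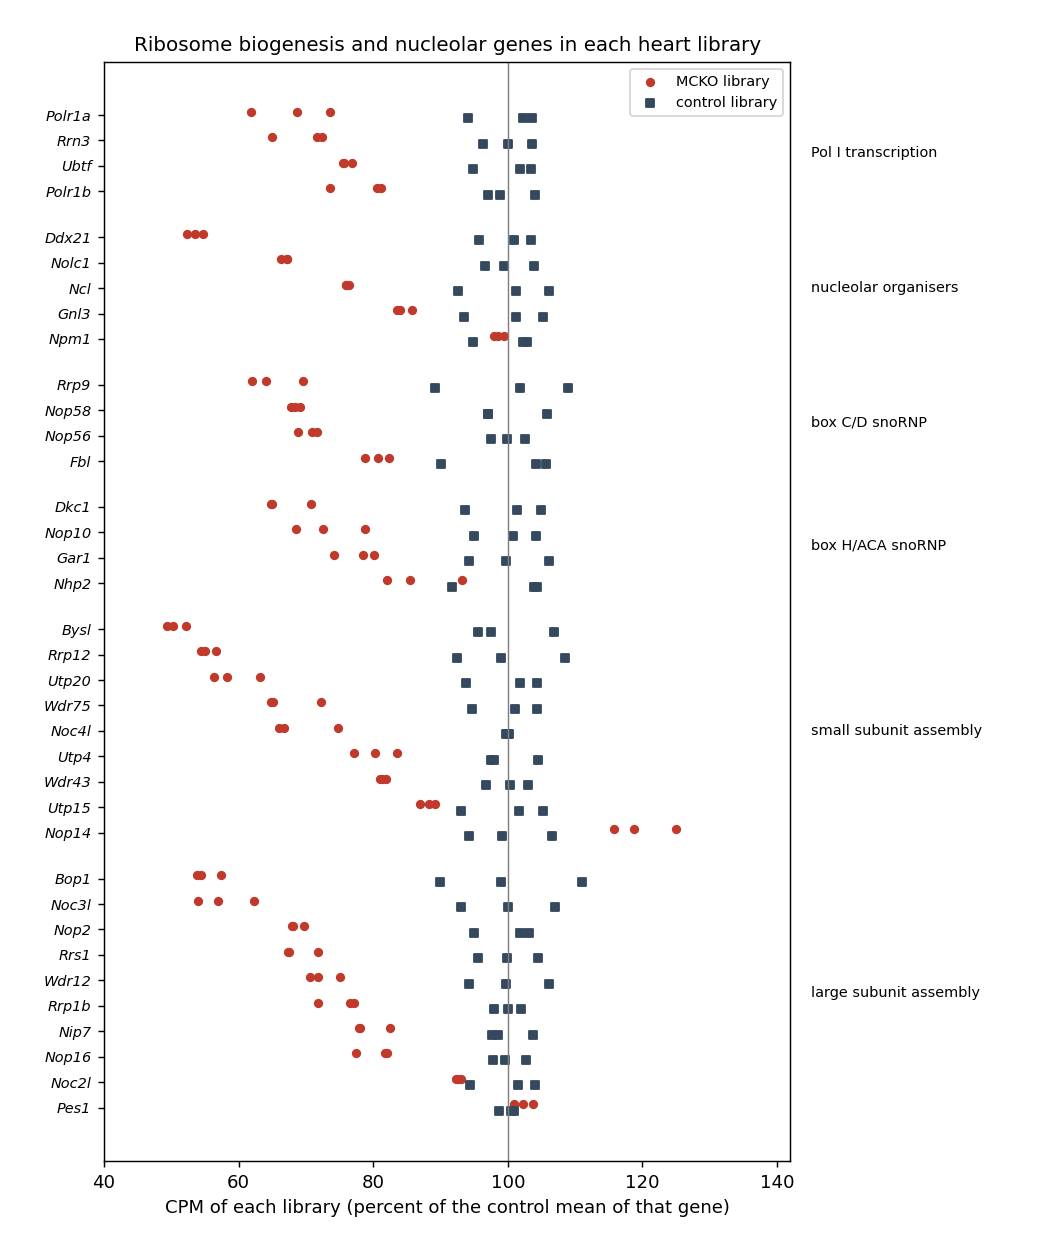
CPM of each member in each library, as a percent of the gene's control mean, with members grouped by role; circles are the 3 MCKO libraries and squares the 3 control libraries. The MCKO libraries lie left of every control library for most genes, and right of them for Nop14; the groups overlap for Npm1, Nhp2 and Pes1.

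Sources of RNA other than the members moved in the same libraries. Primitive red cell genes summed to 5957 to 6308 CPM in MCKO and 2943 to 3141 CPM in controls, with 8 of 8 called higher. The share of mitochondrially encoded genes was 1.31 to 1.38% in MCKO and 3.13 to 3.55% in controls. With these red cell and mitochondrial genes left out of the table, 14654 genes were tested, 30 members fell, 1 rose and the median was -0.40. Leaving them out alters the scaling of the libraries and the fit, but not the counts of the members. Of 10 proliferation genes, 7 fell and none rose, with summed levels of 1956 to 2014 CPM in MCKO and 2288 to 2378 CPM in controls. Of 8 heart muscle markers 3 rose and none fell, and of 8 endothelial markers 6 rose and 2 fell (1106 to 1138 CPM in MCKO, 1031 to 1059 CPM in controls). All 6 epicardial markers fell (77.6 to 79.1 CPM in MCKO, 196.5 to 205.8 CPM in controls), as did 6 of 7 markers of cushion and neural crest mesenchyme (89.8 to 97.0 CPM in MCKO, 172.1 to 176.1 CPM in controls). Markers of endoderm, neural tissue and leukocytes were scarce, and several differed by large factors between the groups. Of 8 endoderm and liver bud genes (9.0 to 9.8 CPM summed in MCKO, 14.5 to 17.05 CPM in controls) 6 were tested, of which 3 rose and 3 fell. Epcam (5.41 CPM in MCKO, 0.898 CPM in controls), Foxa2 (1.42 and 0.315 CPM) and Shh (1.59 and 0.066 CPM) rose. Afp (0.10 CPM in MCKO, 11.4 CPM in controls), Ttr (0.242 and 1.29 CPM) and Hnf4a (0.037 and 0.780 CPM) fell.

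Of 5 neural genes (9.88 to 10.8 CPM summed in MCKO, 22.3 to 27.6 CPM in controls) 4 were tested, of which 2 rose and 1 fell. Sox2 (1.03 CPM in MCKO, 0.140 CPM in controls) and Pax6 (4.23 and 1.33 CPM) rose, and Tubb3 (4.39 CPM in MCKO, 23.4 CPM in controls) fell. Of 5 leukocyte genes (2.19 to 3.39 CPM summed in MCKO, 13.4 to 14.2 CPM in controls) 3 were tested and 2 fell. These were Lyz2 (1.05 CPM in MCKO, 10.4 CPM in controls) and Csf1r (0.956 and 2.33 CPM), while Ptprc, at 0.223 CPM in MCKO and 0.375 CPM in controls, was too low to be tested. No listed marker was at 0 in all libraries. The part of proliferation, of the mix of cell types and of the mitochondrial share in the members' falls was not tested.

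All 4 members of RNA polymerase I transcription fell. Polr1a fell most, with 38.8, 41.5 and 34.9 CPM in the MCKO libraries, against 53.1, 57.7 and 58.5 CPM in the control libraries. Every MCKO library was below every control library (log2 fold change -0.49, SE 0.069, adjusted p = 0.000232). Ubtf, the architectural factor that keeps rRNA genes open for the polymerase, had the highest level per kilobase of transcript in this group, at 24.4 CPM per kb in MCKO and 32.0 CPM per kb in controls. It held 113.9, 113.6 and 115.6 CPM in MCKO and 153.1, 155.5 and 142.6 CPM in controls, again without overlap (log2 fold change -0.33, SE 0.047, adjusted p = 0.000237). Rrn3 (-0.46, SE 0.052) and Polr1b, the second catalytic subunit (-0.29, SE 0.054), also fell on the log2 scale, with adjusted p = 6.16e-05 and 0.00148 by edgeR.

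Among the abundant organisers of the nucleolus, 4 of 5 fell. Ddx21, a DEAD-box RNA helicase of the nucleolus on chromosome 10 (ENSMUSG00000020075), fell most. It had 119.8, 117.3 and 114.4 CPM in MCKO and 220.9, 209.5 and 226.4 CPM in controls (log2 fold change -0.84, SE 0.042, edgeR adjusted p = 3.64e-07). The MCKO libraries sat close together, far below the lowest control library. Npm1, nucleophosmin, a histone chaperone of the nucleolus, was the member with the highest level per kilobase, at 913 CPM per kb in MCKO and 925 CPM per kb in controls. It was not called. Its values were 1503, 1489 and 1480 CPM in MCKO and 1545, 1433 and 1555 CPM in controls, so the groups overlapped (log2 fold change 0.04, SE 0.040, edgeR adjusted p = 0.396). CPM and the fitted fold differ slightly here because edgeR's TMM normalization rescales the library totals. With library totals alone the log2 fold change of Npm1 was -0.019, so its direction depends on the scaling. Npm1 has 3 near-identical processed pseudogenes, of which 1 is in the table with 50 counts over all libraries, so its level is uncertain.

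Nucleolin, the product of Ncl, binds nascent rRNA and ranked second per kilobase. Ncl fell to 906 ± 2.9 CPM in MCKO hearts, against 1191 ± 81 CPM in control hearts (SD, n = 3 each), a log2 fold change of -0.33 (SE 0.049, edgeR adjusted p = 0.000341). The ratio of Npm1 to Ncl CPM within a library was 1.65, 1.65 and 1.64 in MCKO and 1.22, 1.30 and 1.29 in controls. These ratios did not overlap between the groups. Nolc1, a phosphoprotein that escorts snoRNPs, fell by 0.52 (SE 0.042) and Gnl3, the GTPase nucleostemin, by 0.18 (SE 0.049) on the log2 scale. The call of Gnl3 (edgeR adjusted p = 0.0103) was lost without control replicate 1, with -0.15 and adjusted p = 0.0544.

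**Figure D2:**
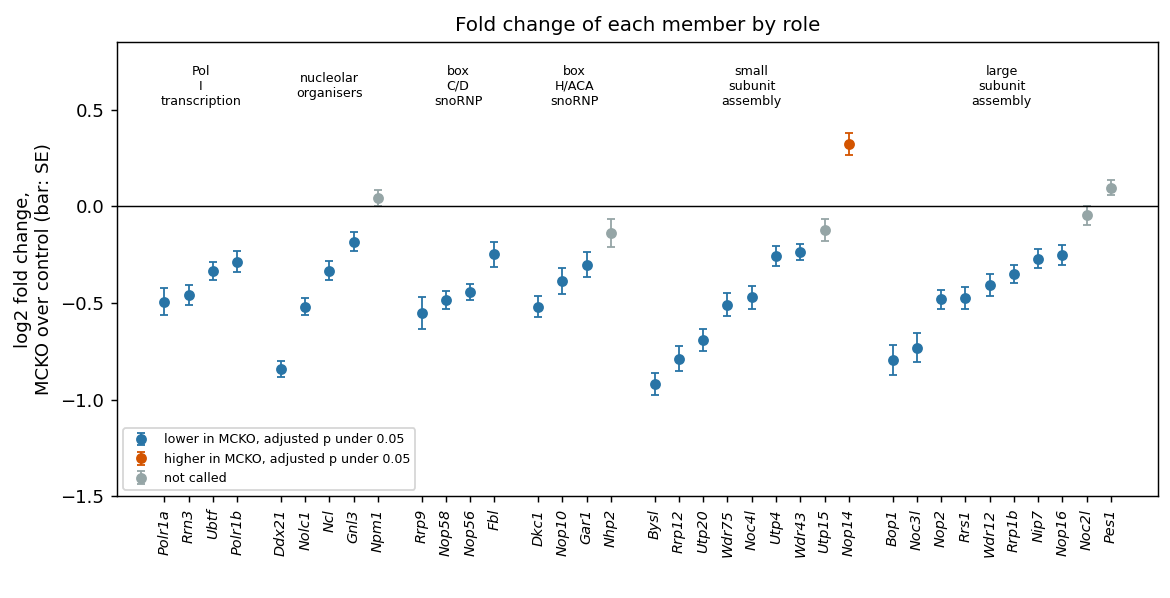
Log2 fold change of each member, MCKO over control, with bars of 1 SE, in 6 role groups. Members lower in MCKO are blue, the 1 member higher in MCKO (Nop14) is orange, and the 5 that were not called (Npm1, Nhp2, Utp15, Noc2l and Pes1) are grey.

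Many box C/D snoRNPs guide methylation of rRNA, and all 4 members that encode proteins of box C/D snoRNPs fell. Rrp9, a protein of the U3 snoRNP, had the largest fall of the group. Its levels were 20.8, 21.5 and 23.4 CPM in MCKO and 34.2, 36.6 and 30.0 CPM in controls (log2 fold change -0.55, SE 0.085, edgeR adjusted p = 0.000425). The highest MCKO library was below the lowest control library. Fbl encodes fibrillarin, the methyltransferase, and led the group per kilobase, at 100.1 CPM per kb in MCKO and 124.1 CPM per kb in controls. Fbl had 117.1, 120.0 and 122.3 CPM in MCKO and 157.1, 154.9 and 133.7 CPM in controls (log2 fold change -0.25, SE 0.064, edgeR adjusted p = 0.00845). The scaffold genes Nop56 and Nop58 fell by 0.44 (SE 0.040) and 0.49 (SE 0.046) on the log2 scale, and their CPM ratio overlapped between the groups, at 1.19 ± 0.034 in MCKO and 1.16 ± 0.034 in controls (SD, n = 3 each).

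Of the 4 genes of box H/ACA snoRNPs, which guide pseudouridylation of rRNA and are also part of telomerase, 3 fell. Dkc1, the pseudouridine synthase dyskerin, is on the X chromosome and fell most. It had 70.1, 64.2 and 64.4 CPM in MCKO, against 100.4, 92.7 and 103.8 CPM in controls (log2 fold change -0.52, SE 0.056, edgeR adjusted p = 4.36e-05). Nop10 and Gar1, small proteins of the same particle, stood at log2 values of -0.39 (SE 0.066) and -0.30 (SE 0.065). The remaining core gene, Nhp2, was not called: it had 42.5, 40.8 and 46.3 CPM in MCKO and 51.9, 51.7 and 45.6 CPM in controls, and the groups overlapped. The fitted log2 difference of Nhp2 was -0.14 (SE 0.072, edgeR adjusted p = 0.125), and it was called lower without control replicate 3 (-0.20, adjusted p = 0.0135) and with library totals only (-0.20, adjusted p = 0.0314). The ratio of Nhp2 to Dkc1 was 0.654 ± 0.059 in MCKO and 0.504 ± 0.060 in controls (SD, n = 3 each), without overlap.

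Assembly factors of the small subunit held both extremes of the members, with 7 of 9 lower and 1 higher. Bysl, which encodes bystin, a factor of small subunit maturation, fell most of all members. It had 39.7, 38.9 and 41.2 CPM in MCKO and 77.0, 84.3 and 75.4 CPM in controls, 0.529 of the control level by the fit (log2 fold change -0.92, SE 0.058, edgeR adjusted p = 1.42e-06). Bysl (ENSMUSG00000023988) is a minus-strand gene at chr17:47599331-47611492 (GRCm38), and 361 bases of its exons overlap those of Ccnd3 on the other strand. Ccnd3 had 44974 counts over all libraries. The use of strand in counting is not given in the sources used here, so reads in the overlap are uncertain. Rrp12, known from yeast as an export factor of pre-ribosomes, fell by 0.79 on the log2 scale (SE 0.065). Utp20, a large scaffold protein of the early particle, stood at -0.69 (SE 0.058).

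Nop14 was the only member called higher. In yeast its protein joins the early small subunit particle with that of Noc4l. It had 65.8, 60.9 and 62.5 CPM in MCKO and 56.1, 49.6 and 52.1 CPM in controls, without overlap (log2 fold change 0.32, SE 0.057, edgeR adjusted p = 0.00099). Nop14 (ENSMUSG00000036693, minus strand, chr5:34638536-34660148, GRCm38) shares 144 exon bases with an antisense gene that is not in the table. Noc4l went the other way, at 29.7 ± 2.1 CPM in MCKO and 42.9 ± 0.12 CPM in controls (SD, n = 3 each; log2 fold change -0.47, SE 0.061). Nop14 kept its call and direction under every alternative fit at this threshold, from 0.26 to 0.37.

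The subcomplex that ties rRNA transcription to early processing comprises, among the members, Wdr43, Wdr75, Utp4 and Utp15. Wdr43 had the highest level of the small subunit group per kilobase, at 26.9 CPM per kb in MCKO and 33.1 CPM per kb in controls. Its CPM values were 92.9, 93.5 and 92.5 in MCKO and 117.6, 110.4 and 114.5 in controls (log2 fold change -0.24, SE 0.041, edgeR adjusted p = 0.000904). Wdr75 fell by 0.51 (SE 0.058) and Utp4 by 0.26 (SE 0.052) on the log2 scale. Utp15 was below every control library in each MCKO library, at 37.2 ± 0.48 CPM in MCKO and 42.2 ± 2.7 CPM in controls (SD, n = 3 each), yet was not called (log2 fold change -0.12, SE 0.056, edgeR adjusted p = 0.0875). It passed the threshold without control replicate 2 (-0.17, adjusted p = 0.0173) and with library totals only (-0.18, adjusted p = 0.0199).

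Among the large subunit factors 8 of 10 fell and 2 were not called. Bop1 had the largest fall, with 38.2, 38.5 and 40.7 CPM in MCKO and 70.2, 78.8 and 63.8 CPM in controls (log2 fold change -0.79, SE 0.078, edgeR adjusted p = 2.7e-05). Its exons share 50 bases with Mroh1 on the other strand, a gene with 18754 counts over all libraries. Bop1, Pes1 and Wdr12 encode the PeBoW complex, which is needed for maturation of the large subunit rRNA. Wdr12 fell by 0.41 (SE 0.057) on the log2 scale, with 36.4 ± 1.1 CPM in MCKO and 50.2 ± 3.0 CPM in controls (SD, n = 3 each). Pes1 had 113.9, 112.2 and 110.7 CPM in MCKO and 110.3, 110.7 and 108.3 CPM in controls, and was not called (log2 fold change 0.09, SE 0.039, edgeR adjusted p = 0.0616). With at least 50 counts in 3 libraries it was called higher, at adjusted p = 0.0459. The ratio of Pes1 to Bop1 within a library was 2.98, 2.91 and 2.72 in MCKO and 1.57, 1.41 and 1.70 in controls.

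That ratio was 1.84 times as high in MCKO as in controls, and the ratio of Wdr12 to Bop1 was 1.30 times as high. Of 10 ratios between partner or neighbouring functions, in pairs chosen by hand, 5 did not overlap between the groups. The ratios restate the folds of their single genes, and no share over other gene pairs was computed. With 3 libraries against 3 a 2-sided exact permutation test cannot go below p = 0.1, which these 5 reached, and the value was 0.2 after Benjamini-Hochberg adjustment over the 10. Pes1 and Wdr12 each have a near-identical processed pseudogene. That of Wdr12 is listed at 0 counts in every library and that of Pes1 is not in the table, so both levels are uncertain.

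**Figure D3:**
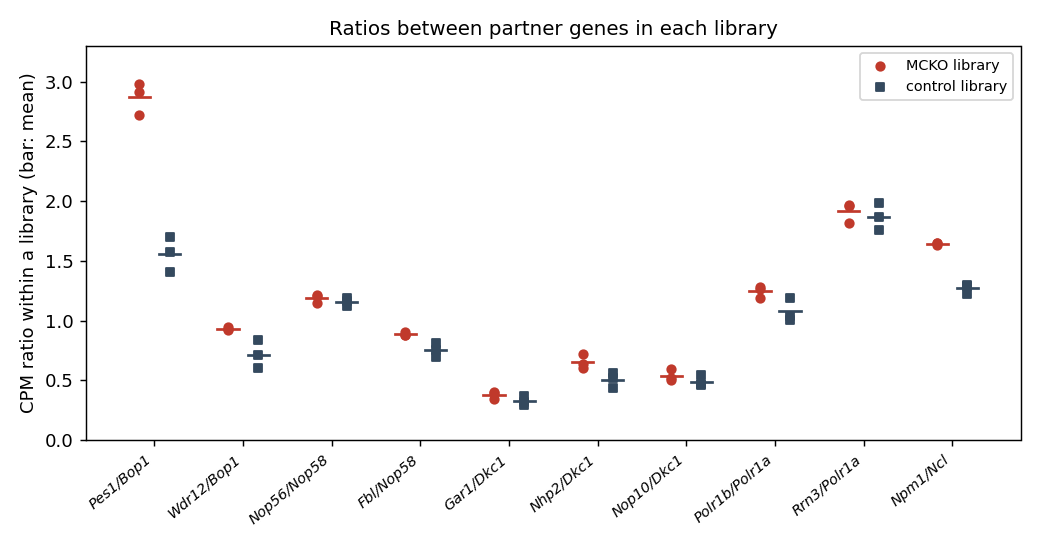
CPM ratio of partner genes within each library, with circles for MCKO libraries, squares for control libraries and bars for group means. Pes1 over Bop1 stands at 2.72 to 2.98 in MCKO and 1.41 to 1.70 in controls, while Nop56 over Nop58 and Rrn3 over Polr1a overlap between the groups.

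The other large subunit members fell by graded amounts. Noc3l, known from yeast for moving early large subunit particles out of the nucleolus, fell by 0.73 on the log2 scale (SE 0.073), Nop2 by 0.48 (SE 0.048) and Rrs1, which helps to install the 5S particle, by 0.47 (SE 0.059). Rrp1b stood at -0.35 (SE 0.046), Nip7 at -0.27 (SE 0.049) and Nop16 at -0.25 (SE 0.050). These 6 genes were called with adjusted p from 2.6e-05 to 0.00189 by edgeR. Noc2l, the partner of Noc3l in the yeast particle, was not called and led the group per kilobase, at 43.3 CPM per kb in MCKO and 46.8 CPM per kb in controls. It had 120.6, 120.1 and 121.1 CPM in MCKO and 132.2, 135.5 and 122.9 CPM in controls (log2 fold change -0.05, SE 0.048, edgeR adjusted p = 0.42). Its exons share 598 bases with Samd11 on the other strand, a gene with 52 counts over all libraries.

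Within groups the members varied little. The coefficient of variation over 3 libraries had a median of 3.23% in MCKO and 4.94% in controls, and was at most 8.65% in MCKO and 10.6% in controls. Across the 36 genes the log2 fold change had a Spearman correlation of 0.28 with the control level per kilobase and of -0.30 with transcript length. The genes share libraries and depth, so these are descriptions only. The members lie on 18 chromosomes, with at most 5 on one of them.

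Most genes of the wider pathway were also lower in MCKO hearts, with a median nearer 0 than that of the members. The members and lists were chosen with earlier results of these data known, and the part of that choice in this difference was not tested. Of 177 other ribosome biogenesis genes, all tested, 108 fell (61.0%) and 17 rose (9.6%), with a median log2 fold change of -0.22. Among all tested genes 29.1% fell and 29.3% rose. The lists differed: medians were -0.30 for exosome and RNase MRP, -0.28 for the small subunit and -0.21 for the large subunit. Medians were nearer 0 for RNA polymerase I (-0.18), snoRNP assembly (-0.094) and RNA polymerase III (-0.076). In the small subunit list, 32 of 50 fell (64%) and 3 rose (6%). Ltv1, which guides late small subunit export, fell most (-1.03, SE 0.045), followed by Pno1 (-0.85, SE 0.048), a partner of the nuclease that finishes the small subunit rRNA, and Heatr1 (-0.72, SE 0.057), of the same early subcomplex as Wdr43. Tsr3 (0.50, SE 0.067), Imp3 (0.42, SE 0.081), a U3 snoRNP protein, and Ddx10 (0.32, SE 0.075), a helicase, were the 3 that rose.

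In the large subunit list, 35 of 55 fell (63.6%) and 4 rose (7.27%), against 29.1% and 29.3% of all tested genes. The largest falls were those of the helicase gene Ddx31 (-0.70, SE 0.084), Mdn1, a giant ATPase that strips factors from the particle (-0.65, SE 0.052), and Urb2 (-0.60, SE 0.045). Nop53 (0.49, SE 0.12), Zfp622 (0.47, SE 0.072), which acts late in the cytoplasm, and Nsa2 (0.25, SE 0.041) rose. Of 25 genes of the exosome and of RNase MRP, which trim and cut rRNA, 19 fell (76%) and none rose. Exosc1 (-0.61, SE 0.065), Exosc2 (-0.52, SE 0.058) and Pop5 (-0.50, SE 0.073) fell most.

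Of 18 other RNA polymerase I genes 8 fell (44.4%) and 4 rose (22.2%), against 29.1% and 29.3% of all tested genes. Polr2l (-0.81, SE 0.14), a subunit that all the nuclear RNA polymerases share, Polr1e (-0.69, SE 0.081) and Taf1c (-0.42, SE 0.095) fell. Taf1d (0.70, SE 0.25), Baz2a (0.32, SE 0.048), which silences rRNA genes, and Polr1c (0.26, SE 0.082) rose. Of 10 snoRNP assembly genes 5 fell (50%) and 2 rose (20%). Rpap3 (-0.38, SE 0.058), Znhit6 (-0.32, SE 0.12) and the core box C/D protein gene Snu13 (-0.27, SE 0.043) had the largest falls. The ATPase gene Ruvbl2 (0.42, SE 0.094) and Nufip1 (0.24, SE 0.055) rose.

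RNA polymerase III makes the 5S rRNA and transfer RNAs. Of its 19 listed genes, 9 fell (47.4%) and 4 rose (21.1%), against 29.1% and 29.3% of all tested genes. Gtf3c6 (-0.56, SE 0.14), Polr3d (-0.54, SE 0.066) and Polr3e (-0.48, SE 0.064) had the largest falls. Maf1, the repressor of the polymerase, rose by 0.64 (SE 0.067), with Polr3g (0.34, SE 0.045) and Polr3gl (0.28, SE 0.062).

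**Figure D4:**
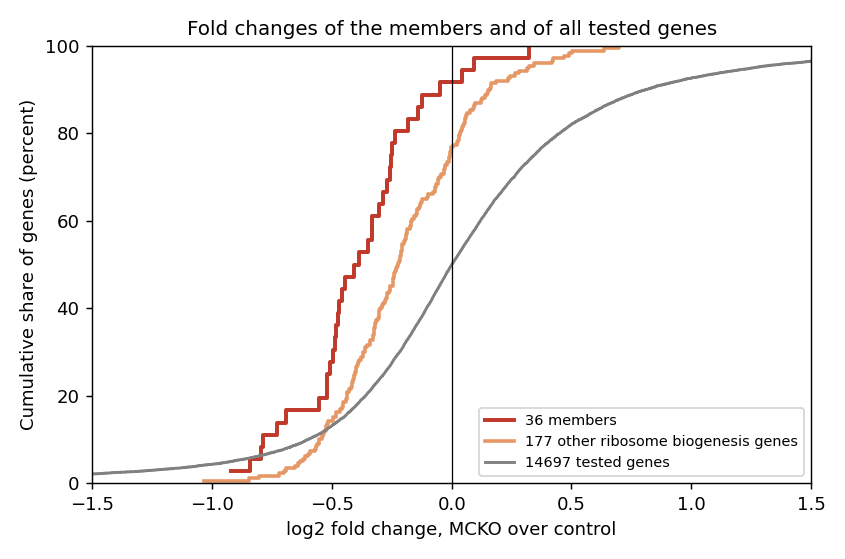
Cumulative share of genes against the log2 fold change, MCKO over control, for the 36 members, the 177 other ribosome biogenesis genes and all 14697 tested genes (values beyond -1.5 and 1.5 are outside the axis). The members' curve lies furthest left around its median of -0.40, the wider list has its median at -0.22, and all tested genes have theirs near 0.

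Genes of the MYC and MAX network went mostly the opposite way, with 7 of 11 higher and 2 lower, against 29.3% of tested genes higher. Myc had 33.0, 39.4 and 36.8 CPM in MCKO and 15.5, 18.3 and 15.3 CPM in controls (log2 fold change 1.22, SE 0.092, edgeR adjusted p = 4.52e-06). Mycn, the MYC gene with the highest level per kilobase of the 3, had 82.7, 92.1 and 94.0 CPM in MCKO and 57.4, 65.1 and 58.9 CPM in controls (log2 fold change 0.63, SE 0.068, edgeR adjusted p = 4.47e-05). For both genes all MCKO libraries were above all control libraries. Mycl, the least abundant of the 3, also rose (0.62, SE 0.14), with 6.21 ± 0.69 CPM in MCKO and 4.25 ± 0.63 CPM in controls (SD, n = 3 each).

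Among the antagonists that compete for MAX, Mxi1 and Mnt rose and Mxd4 fell. Mxi1 had 109.1, 106.6 and 107.5 CPM in MCKO, against 29.5, 26.6 and 29.7 CPM in controls (log2 fold change 1.97, SE 0.052, edgeR adjusted p = 6.57e-09). Mnt had 59.5, 64.4 and 65.1 CPM in MCKO, against 24.7, 27.2 and 23.3 CPM in controls (log2 fold change 1.39, SE 0.070, edgeR adjusted p = 3.41e-07). Both were far above every control library. Mga, a large MAX partner, also rose (0.32, SE 0.067), while Mxd4 fell (-0.74, SE 0.059) and Mlx, a related partner, fell slightly (-0.19, SE 0.058).

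Max itself had a log2 fold change of 0.16 (SE 0.049, edgeR adjusted p = 0.0179). Its call was lost in 6 alternative fits, among them those without MCKO replicate 1, MCKO replicate 2 or control replicate 1 (adjusted p = 0.0646, 0.0726 and 0.0621). The call of Mlx was lost without the same libraries (adjusted p = 0.0598, 0.0832 and 0.0734). Mxd1 (0.21, SE 0.095) and Mxd3 (-0.09, SE 0.16) were not called, and Mxd1 was called without control replicate 2 (0.29, adjusted p = 0.025). Of 14 genes listed as snoRNA hosts, 1 was matched in the table, Snhg16, with 13.6 ± 1.2 CPM in MCKO and 12.8 ± 0.13 CPM in controls (SD, n = 3 each; not called, edgeR adjusted p = 0.141).

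**Figure D5:**
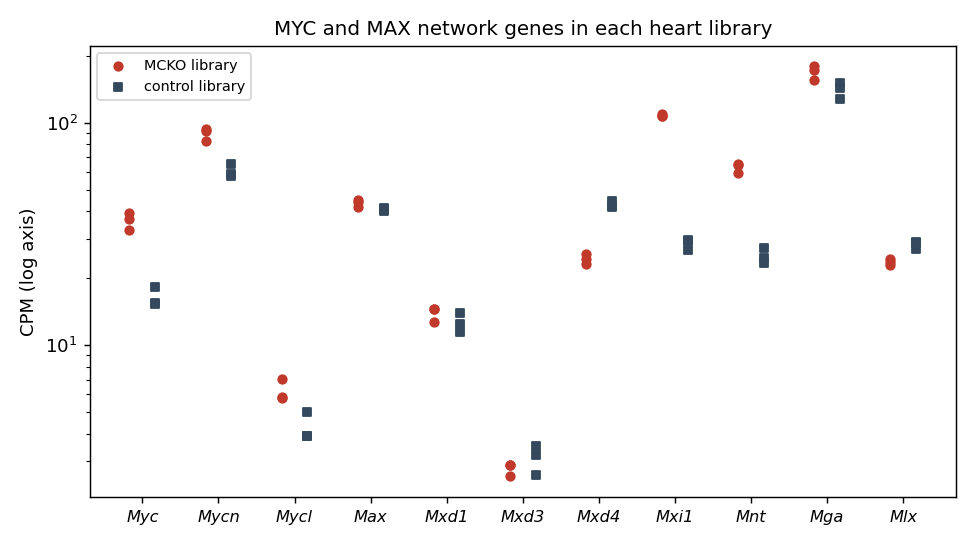
CPM of the MYC and MAX network genes in each library on a log axis, with circles for MCKO and squares for controls. Mxi1, Mnt and Myc stand well above the controls in all 3 MCKO libraries, Mxd4 stands below them, and Mxd1 and Mxd3 overlap.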

How the data were processed

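RNA was measured in 3 MCKO and 3 control libraries of whole hearts at embryonic day 9.5, made with a stranded mRNA kit, per the labels' protocols. The authors deposited estimated counts for each Ensembl gene ID, all of them whole. Per the submitters' processing notes, kallisto and the build mm10 were used. Their version, transcript set and summing to genes were not given in the sources used here. Columns headed E9CKO were taken as the samples titled E9MCKO with the same number. GENCODE release M21 (GRCm38) gave coordinates, and symbols for 29936 IDs. Promoters are from RefSeq.

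The counts were tested in R 4.3.3 by edgeR 4.0.16 (TMM, default filterByExpr, robust quasi-likelihood fit with group as the only term, 2-sided). The fit was also run on simulated data with few changed genes, as many up as down, which does not test the scaling between libraries. Counts that kallisto divides between near-identical copies are uncertain: copies were sought with minimap2 2.31 at 95% identity over 80% of the shorter transcript. CPM per kb uses the longest APPRIS principal transcript. A count of 0 allows up to 0.0876 to 0.156 CPM (3 counts in a library), for counting error only. Replicates differed by a chi-square of 3.56 to 15.5 per degree of freedom within groups, so no library was a copy of another.

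The members and lists were chosen with earlier results of these data known. Every member is named; values in every library are given for the largest called change in each direction and the highest level per kb in each of 6 role groups. Pes1, Myc, Mycn, Mxi1 and Mnt were given the same detail after their values were seen; all genes of the MYC and MAX list are named. From each wider list up to 3 called genes in each direction are named. Riok2, Exosc6 and Gtf3c2 were not analysed here. Alternatives were other size factors, filters, DESeq2 1.42.0, limma-voom 3.58.1, a replicate block, each library left out, a threshold of 0.01, summed copies, and a table without mitochondrially encoded and red cell genes, which was chosen after seeing the data.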

Additional observations from a re-analysis of the deposited data

How the results depend on the processing

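Of the 30 members that fell, 29 were lower and called in all 17 fits at an adjusted p under 0.05; the exception was Gnl3, in 1 of them. Over the fits with each library left out, 29 to 31 members fell and the median log2 fold change was -0.42 to -0.37. With library totals only, 32 members fell, the median was -0.46 and Npm1 turned to -0.019, while the median of all tested genes was -0.061 and 42.6% of calls were higher, against 50.2% with TMM. With at least 50 counts in 3 libraries 2 members rose, Nop14 and Pes1. At an adjusted p under 0.01, 29 members fell, against 22.5% of tested genes. Summed copies changed no count.

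For the wider list the median was -0.29 with library totals only, -0.24 with upper quartile factors, -0.22 with no filter and -0.23 to -0.21 with each library left out, when 92 to 106 genes fell and 12 to 20 rose. In the MYC and MAX network 1 gene was lower with DESeq2, 1 at an adjusted p under 0.01, and 1 or 2 with each library left out, when 6 to 8 rose. With the replicate block 30 members fell and 1 rose, and it lost the call of Max (adjusted p = 0.052); in the wider list 97 genes fell and 14 rose. Deviations of same-numbered libraries correlated at -0.0047, 0.022 and -0.13, and 1 of 6 libraries had its own number as best match. No pairing was found this way, but with 3 libraries in each group a shared litter or batch may go unseen. The cause of these shifts was not tested.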
